A study of Rattus norvegicus with 36 samples.

Results

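The genes of fatty acid oxidation and ketogenesis were followed in rat liver across 6 dose groups of decabromodiphenyl ether (decaBDE), a brominated flame retardant. The list held 36 gene symbols, and 35 of them had at least 1 probe set whose annotation gave that symbol alone, out of 14217 genes measured this way. Each gene was read from its brightest probe set by mean over all 36 arrays. Acaa1a, a peroxisomal thiolase, was found only on a probe set shared with Acaa1b, so it was not measured on its own.

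All livers came from male Harlan Sprague Dawley rats that were 7 weeks old when dosing began and ate the NTP-2000 diet. They were gavaged on 5 consecutive days in corn oil at 5 ml/kg, with decaBDE at 0.1 mg/kg, 0.959 mg/kg, 9.59 mg/kg, 95.9 mg/kg or 959 mg/kg, or with corn oil alone as vehicle. The left lobe was collected 1 day after the last dose, and 6 arrays were run per group. The vehicle rats also received the oil. Food was freely available during the study, and the labels do not say whether it was withdrawn before collection.

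In the liver, fatty acids are bound, activated to acyl-CoA and passed into mitochondria through the carnitine shuttle, where beta-oxidation shortens them and yields acetyl-CoA for ketone bodies. Peroxisomes shorten very long and branched chains with their own enzymes. PPARA, a nuclear receptor that binds fatty acids, drives many of these genes in fasting, and in rats its agonists raise peroxisomal enzymes strongly.

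The values were log2 RMA signals, so a difference of 1 is a doubling. Array medians ran from 5.12 to 5.21. Pearson's r between arrays ran from 0.988 to 0.996 across probe sets, which are not independent replicates. One array differed most from the rest, replicate 6 at 0.1 mg/kg, which had the lowest estimated array weight (0.517). Hepatocyte markers averaged 14.1 to 14.2 in every group over 5 of 6 markers, and Alb, the albumin gene, lay at 14.98. Kupffer cell and macrophage markers, 6 of 8 measured, averaged 8.01, 7.99, 8.13, 8.29 and 8.26 from the lowest to the highest dose, against 8.49 in vehicle arrays, and array means ran from 7.36 to 8.85. The adipocyte markers Adipoq, Plin1 and Lep lay between 3.91 and 4.43, below the median probe set (5.16), while the fourth, Cidec, lay at 9.12. The mean of these 4 markers was 5.43, 5.42, 5.45, 5.44 and 5.47 from the lowest to the highest dose, against 5.42 in vehicle arrays. Of the muscle markers, Ckm, Myh2, Myh4, Tnnt3 and Actn3 lay between 2.84 and 4.27, while the probe set annotated Myh1 lay at 11.62. The actin control's 3′ minus 5′ signal, a measure of RNA breakdown, averaged 1.24, 1.23, 1.20, 1.17 and 1.14 from the lowest to the highest dose, against 1.16 in vehicle arrays. The GAPDH control did not fall steadily with dose, at -0.043, -0.072, -0.031, -0.100 and -0.095, against -0.081 in vehicle arrays. The part of the macrophage markers or of RNA quality in the results was not tested. In whole tissue, fewer cells of a type and less RNA per cell cannot be told apart. The labels do not say that each array was a separate rat, so the p-values measure the spread between arrays.

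The pathway was strongly expressed. Of the 35 members, 27 lay in the top 10% of all probe sets by level and 25 had a mean level of 10 or more. The level of one probe set cannot be set against that of another, so these are ranks on the array and not an order of transcripts. Fabp1, the liver fatty acid binding protein, had a mean of 14.2, and Acsl1, which activates long chains, had 13.0. At the low end were Cpt1b, the muscle form of carnitine palmitoyltransferase 1 (4.88), the coactivator gene Ppargc1a (5.17), Ppara itself (5.71) and the fatty acid transporter Cd36 (6.53).

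Arrays of one dose group differed little for many of the enzymes and widely for most genes of the fasting response. For 16 members, the SD within groups was in the lowest 10% of all 31042 probe sets. Fabp1 (0.0381), Etfa (0.0412), Hadh (0.0515), Acadm (0.0553) and Acadl (0.0562) were the tightest. Their mean levels were high, from 12.1 to 14.2, and SDs were not compared with those of probe sets of like level. Another 8 members were in the highest 10%. These were led by Fgf21, a hormone the liver secretes in fasting, whose SD of 1.29 ranked 11 of 31042. Angptl4, an inhibitor of lipoprotein lipase, had 0.519. Pdk4, the kinase that switches off pyruvate dehydrogenase, had 0.411. Ppara had 0.392, and Cpt1a, the liver gatekeeper of the carnitine shuttle, had 0.366. The rest of the 8 were Cd36, Ppargc1a and Eci1, an isomerase for unsaturated chains (0.227).

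**Figure D1:**
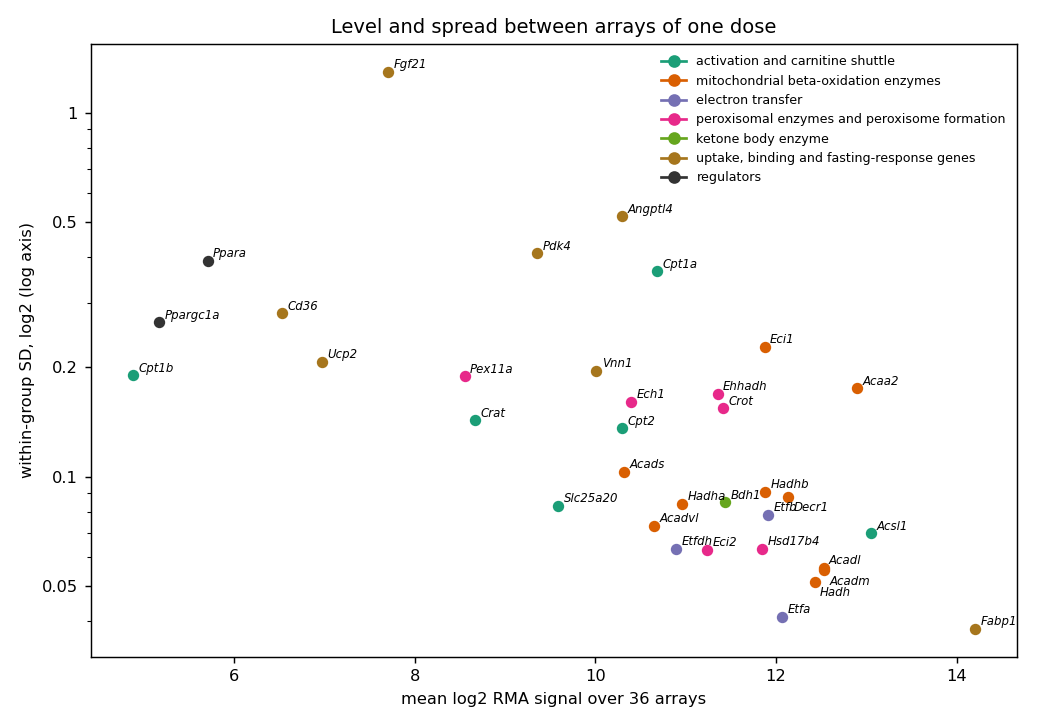
Mean log2 RMA signal over 36 arrays (x axis) against the SD within dose groups on a log axis (y axis) for the 35 measured genes, coloured by role. Fgf21 stands highest at 1.29 and Fabp1 lowest at 0.0381.

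No member passed the test at any dose. In limma with Benjamini-Hochberg adjustment over 31042 probe sets, 0 of 35 members were under an adjusted p of 0.05 in each of 10 comparisons. The share of all probe sets that passed was 0% at 0.1, 0.029% at 0.959, 0.116% at 9.59, 0.0902% at 95.9 and 0.11% at 959 mg/kg against vehicle. It was 0.00644% for 959 minus 95.9 mg/kg, 0.216% for the mean of the 3 highest doses minus vehicle and 0.0805% for the mean of all 5 doses minus vehicle. It was 0.393% for a straight line in dose rank (vehicle 0 to 959 mg/kg 5) and 0.135% for any difference among the 6 groups. All comparisons with vehicle share the same 6 vehicle arrays, so they are not independent of each other.

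The precision bounds what differences in probe set signal could be missed. At 959 mg/kg the 95% interval lay wholly within 0.25 log2 units of no difference for 18 of 35 members and within 0.5 for 30. It lay within 1 for 34, the exception being Fgf21. The distance from the estimate to either bound had a median of 0.159 and ran from 0.0723 for Fabp1 to 1.40 for Fgf21.

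Most of the small differences at the 2 highest doses were below vehicle. Below an unadjusted p of 0.05 in limma, 8 of 35 members were lower at 95.9 mg/kg and 0 were higher. Of all probe sets, 3.49% were lower and 3.53% higher. At 959 mg/kg 7 were lower and 0 higher, where 2.53% of all probe sets were lower and 3.55% higher. The mean of the 3 highest doses gave 8 lower and 0 higher, where 3.17% of all probe sets were lower and 4.32% higher. Along dose rank, 13 members sloped down and 0 sloped up, where 4.05% of all probe sets sloped down and 4.66% up. For activation and the carnitine shuttle they were Acsl1, Cpt1a, Cpt1b, Cpt2 and Crat. The others were Hadha, Hadhb, Decr1 and Etfb of the mitochondrial chain, Ehhadh, Pex11a and Ech1 of the peroxisomal group, and Fabp1. Among the 13, Cpt1b was dim, with a mean level of 4.88 against 5.16 for the median probe set. At 0.1 mg/kg no member was under this p in either direction, where 1.56% of all probe sets were lower and 2.22% higher. The same held at 0.959 mg/kg, where 2.95% were lower and 3.12% higher. At 9.59 mg/kg 1 member was lower (Fabp1) and 2 were higher (Acadvl and Acads), which is near the 3.95% and 4.66% of all probe sets.

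The count rests partly on single vehicle arrays. Without vehicle replicate 2 the 7 at 959 mg/kg became 3, and without vehicle replicate 4 the 8 at 95.9 mg/kg became 3. Without vehicle replicate 2, 1 member was also higher at 95.9 mg/kg, at 959 mg/kg and for the mean of the 3 highest doses. Leaving out vehicle replicate 5 or 95.9 mg/kg replicate 2 gave 5 at 95.9 mg/kg. For the mean of the 3 highest doses the count was 4 without vehicle replicate 4 and 5 without vehicle replicate 3 or 9.59 mg/kg replicate 4. With each array left out in turn, the 13 downward slopes along dose rank ranged from 11 to 14, and there were 12 without the 0.1 mg/kg array that differed most. On values minus each array's median, the counts were 4 at 95.9 mg/kg, 4 at 959 mg/kg, 3 for the 3 highest doses and 11 along dose rank. After another quantile normalization they were 10, 8, 9 and 14 in the same order. With a block for replicate number they were 6, 6, 8 and 13. The share of all probe sets under this p is not given for these fits or those with an array left out.

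The median of the whole list lay close to vehicle. As a log2 difference from vehicle it was -0.016, -0.018, -0.031, -0.068 and -0.078 from the lowest to the highest dose. The median over all probe sets stayed between -0.004 and 0.006. Members with a value below vehicle numbered 23, 24, 24, 30 and 24 of 35 in the same order. Between 46.8% and 51.7% of all probe sets lay below vehicle in these comparisons. In 959 minus 95.9 mg/kg, which uses no vehicle array, 18 of 35 members were lower and the median was 0.00. Bright probe sets as a class went the other way. Of 1613 probe sets at a level of 10 or more, 33.7% were below vehicle at 95.9 mg/kg and 43.4% at 959 mg/kg. Of the 25 members at that level, 22 were below vehicle at 95.9 mg/kg and 18 at 959 mg/kg. Under an unadjusted p of 0.05 in limma, 2.91% of the 1613 were lower at 95.9 mg/kg and 5.39% at 959 mg/kg. Along dose rank 6.70% sloped down. The members lower by this p were 6, 6 and 10 of 25. Higher were 8.06%, 9.18% and 14.0% of the 1613, and 0 members in each case.

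**Figure D2:**
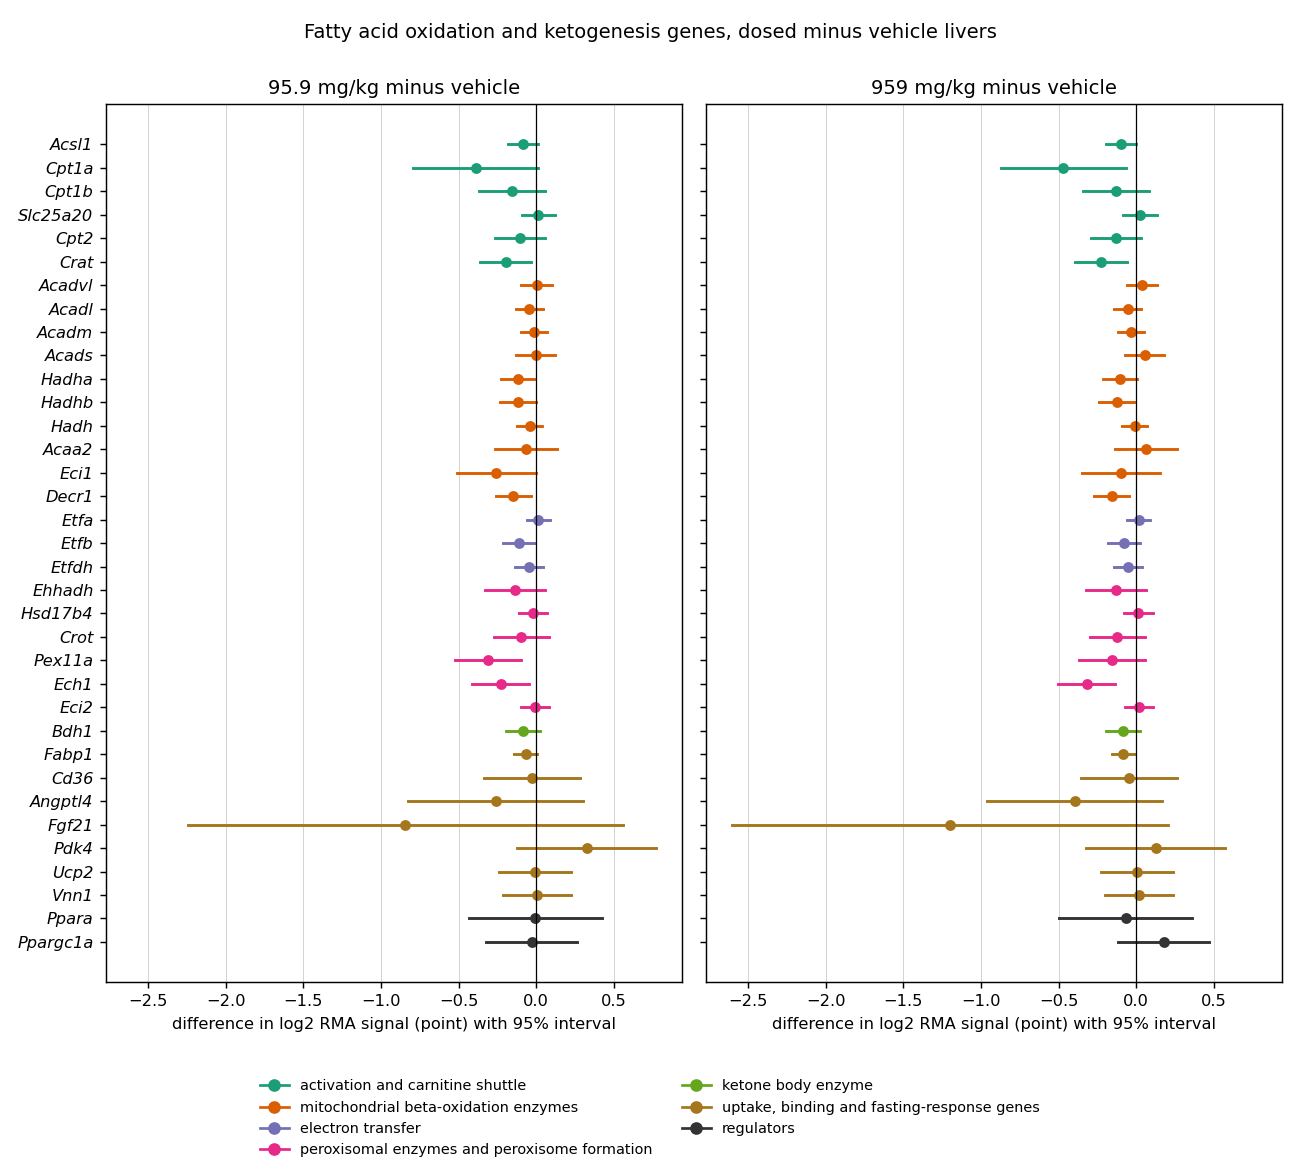
Difference in log2 RMA signal (x axis) between 6 arrays at 95.9 mg/kg (left) or 959 mg/kg (right) and 6 vehicle arrays for each of 35 genes (rows, coloured by role), with limma's 95% intervals. Most points lie close to and left of 0, and Fgf21 has by far the widest interval.

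For activation and the carnitine shuttle, Acsl1, Cpt1a, Cpt1b, Cpt2 and Crat lay below vehicle at 959 mg/kg. Slc25a20, the translocase, lay at 0.02. Acsl1 was at -0.10, and Cpt1b and the inner membrane enzyme Cpt2 were at -0.13 each. The median over the 6 genes was -0.13. Cpt1a had the lowest value of the group. Its signal ran from 9.80 to 11.03 with a median of 10.57 at 959 mg/kg, against 10.58 to 11.45 with a median of 10.89 in vehicle arrays. Of the 6 top-dose arrays, 3 lay below every vehicle array and the ranges overlapped. The difference was -0.47 (limma SE 0.198, 0.722-fold), the unadjusted p 0.0230 and the adjusted p 0.760.

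Every dose group mean of Cpt1a lay below the vehicle mean. The means were 10.86 at 0.1, 10.61 at 0.959, 10.57 at 9.59, 10.58 at 95.9 and 10.50 at 959 mg/kg, against 10.97 in vehicle arrays. A second, dimmer Cpt1a probe set gave -0.44 (adjusted p 0.740) at the top dose, so both probe sets of the gene read alike. The brighter probe set varied widely within groups, with SDs of 0.512 at 959 mg/kg and 0.369 in vehicle arrays.

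Crat encodes carnitine acetyltransferase, which works in both mitochondria and peroxisomes. It ran from 8.19 to 8.64 with a median of 8.62 at 959 mg/kg, against 8.58 to 8.98 with a median of 8.72 in vehicle arrays. The difference was -0.23 (SE 0.0815, adjusted p 0.634) at 959 mg/kg and -0.20 (adjusted p 0.595) at 95.9 mg/kg. Values at the 3 lower doses were near vehicle or above, at 8.81, 8.69 and 8.71, against 8.74 in vehicle arrays. Its slope along dose rank was -0.055 per step (unadjusted p 0.000333, adjusted p 0.0743), and among the members it had the smallest p for any difference among the groups (0.00486, adjusted 0.416).

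**Figure D3:**
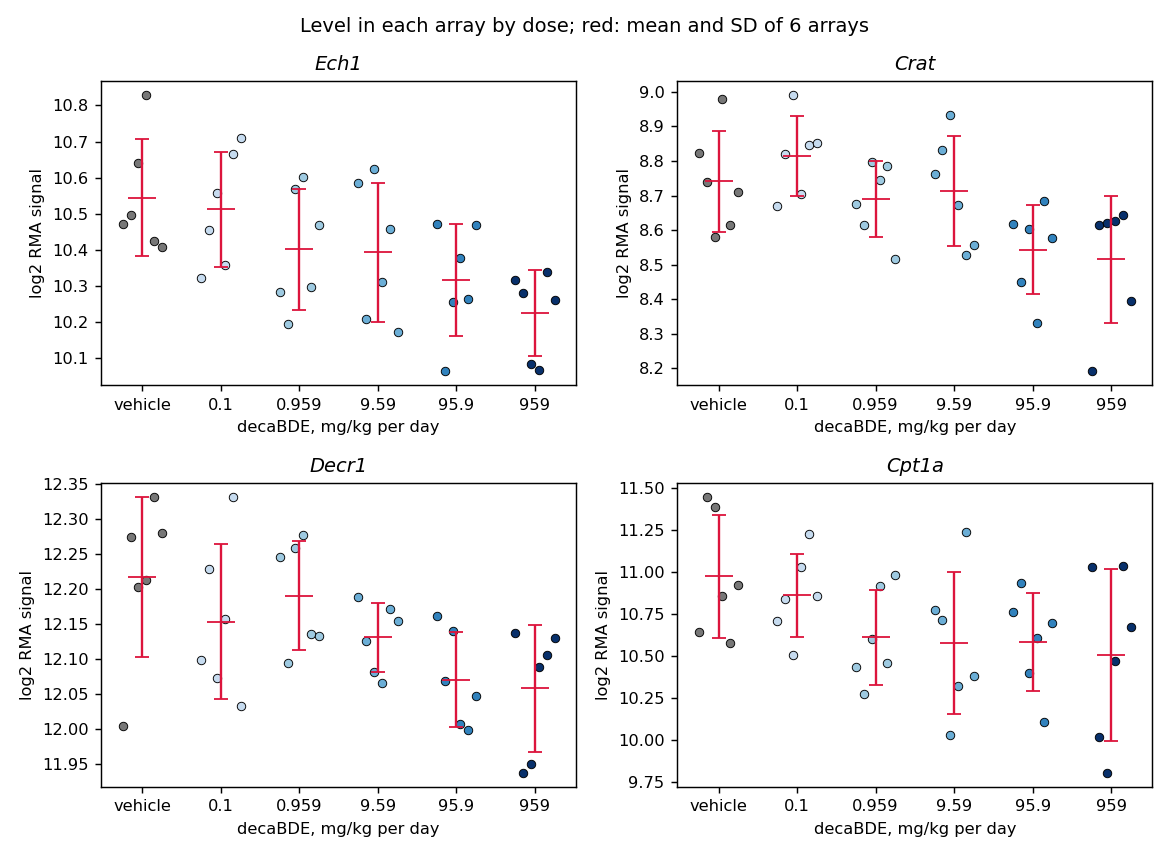
Log2 RMA signal (y axis) in each array by decaBDE dose (x axis) for Ech1, Crat, Decr1 and Cpt1a, with the mean and SD of 6 arrays in red. All 6 Ech1 arrays at 959 mg/kg, at 10.07 to 10.34, lie below the 6 vehicle arrays, while the other 3 genes overlap.

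The mitochondrial chain enzymes were close to vehicle. Among the acyl-CoA dehydrogenases, which take the first step for very long, long, medium and short chains, the differences at 959 mg/kg were 0.04 for Acadvl, -0.06 for Acadl, -0.03 for Acadm and 0.06 for Acads. Acadm was measured tightly, at 12.44 to 12.62 with a median of 12.49 at 959 mg/kg, against 12.50 to 12.58 with a median of 12.55 in vehicle arrays. Its interval of -0.12 to 0.05 leaves room only for small differences in the signal of this probe set at the top dose. Acads at 9.59 mg/kg ran from 10.34 to 10.57, above all vehicle arrays (10.23 to 10.31), at a difference of 0.14 (adjusted p 0.515). Its arrays at 0.959 mg/kg lay above all vehicle arrays in 5 of 6 cases, and at 95.9 mg/kg 3 lay above and 3 below.

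Hadha and Hadhb encode the subunits of the trifunctional protein, which takes long chains through the later steps. Hadhb ran from 11.65 to 11.90 with a median of 11.82 at 959 mg/kg, against 11.86 to 11.99 with a median of 11.90 in vehicle arrays. Of the 6 arrays, 5 lay below every vehicle array at 959 and likewise 5 at 95.9 mg/kg. The differences were -0.13 (SE 0.0566, adjusted p 0.779) and -0.12 (adjusted p 0.702). Hadha had -0.11 (adjusted p 0.828) and -0.12 (adjusted p 0.644) at these doses. Within dose groups the pair of genes varied together across the 36 arrays, with r 0.532 and rho 0.492. This is a description of arrays that share hybridisation and normalization. The share of other probe sets with an r as high is not given, and no cause of the relation was tested.

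These genes lie head to head in the rat genome, with 300 bases between their starts. The 250 bases before each start therefore share 200 bases (chr6:31907551-31907750, RefSeq GRCr8), identical on opposite strands. The stretch is shown because a single region precedes both subunit genes. It is printed on the Hadha strand, with no motif in capitals because none of those searched was found in it.

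Hadha, chr6:31907551-31907800 (+): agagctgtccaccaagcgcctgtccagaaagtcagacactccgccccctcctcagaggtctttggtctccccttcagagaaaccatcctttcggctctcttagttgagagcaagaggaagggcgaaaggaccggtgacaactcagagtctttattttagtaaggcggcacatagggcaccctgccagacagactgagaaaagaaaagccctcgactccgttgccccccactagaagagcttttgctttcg

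Decr1, an enzyme needed to oxidise unsaturated chains, had the smallest p of the mitochondrial enzymes at the top dose. It ran from 11.94 to 12.14 with a median of 12.10 at 959 mg/kg, against 12.01 to 12.33 with a median of 12.24 in vehicle arrays. The difference was -0.16 (SE 0.0553, adjusted p 0.589) at 959 mg/kg and -0.15 (adjusted p 0.534) at 95.9 mg/kg. The vehicle range included 1 low array, replicate 1 at 12.01, which lay inside the 959 mg/kg range. Eci1, the isomerase for the same kind of chain, was -0.26 (adjusted p 0.700) at 95.9 mg/kg and -0.10 at 959 mg/kg. Hadh and Acaa2, the later steps for shorter chains, were -0.01 and 0.06 at 959 mg/kg.

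The electron transfer flavoprotein carries electrons from the dehydrogenases to the respiratory chain. Etfa, its alpha subunit, was at 0.02 and Etfdh, its oxidoreductase, at -0.05 at the top dose. Etfb, the beta subunit, ran from 11.73 to 12.06 with a median of 11.89 at 959 mg/kg, against 11.91 to 12.02 with a median of 11.96 in vehicle arrays. The difference was -0.08 (SE 0.0511, adjusted p 0.881) at 959 mg/kg and -0.11 (adjusted p 0.659) at 95.9 mg/kg. The top-dose arrays of Etfb reached both above and below the vehicle range.

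Ech1 stood out among the peroxisomal group. It encodes a dienoyl-CoA isomerase found in both peroxisomes and mitochondria. It ran from 10.07 to 10.34 with a median of 10.27 at 959 mg/kg, against 10.41 to 10.83 with a median of 10.48 in vehicle arrays. All 6 top-dose arrays lay below all 6 vehicle arrays. The difference was -0.32 (SE 0.0905, 95% interval -0.50 to -0.14, 0.801-fold), with an unadjusted p of 0.00118 and an adjusted p of 0.282.

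The Ech1 group means followed the order of dose. They were 10.51 at 0.1, 10.40 at 0.959, 10.39 at 9.59, 10.32 at 95.9 and 10.23 at 959 mg/kg, against 10.55 in vehicle arrays. The slope was -0.063 per step of dose rank (SE 0.0153, unadjusted p 0.000239), and its adjusted p of 0.0571 was the smallest of any member in any comparison. Under 4 other settings, and without any 1 of 7 single arrays, this slope passed the threshold of 0.05, with the values and the shares of all probe sets called given under the processing choices.

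The other peroxisomal genes did not share one direction at the top dose. Ehhadh, the bifunctional enzyme that PPARA agonists raise in rats, ran from 11.06 to 11.52 with a median of 11.28 at 959 mg/kg, against 11.28 to 11.68 with a median of 11.34 in vehicle arrays. Its difference was -0.13 (SE 0.0947, adjusted p 0.898). Crot, which makes carnitine esters for export from peroxisomes, was at -0.12. Hsd17b4, the other bifunctional enzyme, was at 0.01, as was Eci2, an isomerase of both compartments. Pex11a, which takes part in peroxisome division, had its lowest group mean at 95.9 mg/kg, with values from 8.14 to 8.55 with a median of 8.35, against 8.48 to 8.92 with a median of 8.66 in vehicle arrays. That difference was -0.31 (SE 0.105, adjusted p 0.451), and a second Pex11a probe set gave -0.26 (adjusted p 0.634). At 959 mg/kg the gene was at -0.15 (adjusted p 0.887), and 1 array there, at 8.11, was the lowest of all. The probe set shared by Acaa1a and Acaa1b was at 0.03 (SE 0.0561, adjusted p 0.979) at 959 mg/kg.

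The averages of the mitochondrial and peroxisomal classes differed from each other by less than the spread between single arrays. This depends on which genes are counted as peroxisomal. The mitochondrial class held 17 genes and the peroxisomal class 3 (Ehhadh, Hsd17b4 and Crot), with Ech1, Eci2 and Crat counted as both. Median differences from vehicle in the mitochondrial class were -0.004, -0.001, -0.005, -0.065 and -0.056 from the lowest to the highest dose. In the peroxisomal class they were -0.016, -0.007, -0.056, -0.096 and -0.121. For the genes of both compartments they were -0.010, -0.052, -0.027, -0.197 and -0.226. Each class was also averaged per array, after subtracting each gene's mean over all arrays.

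The mitochondrial average per array was -0.062 ± 0.0536 at 95.9 mg/kg and -0.043 ± 0.0270 at 959 mg/kg, against 0.031 ± 0.0323 in vehicle arrays (SD, n = 6 each). The top-dose arrays, at -0.08 to -0.01, touched only the lowest vehicle array of a range from -0.01 to 0.08. The peroxisomal average was -0.044 ± 0.0578 at 95.9 mg/kg and -0.040 ± 0.0639 at 959 mg/kg, against 0.040 ± 0.106 in vehicle arrays. One class minus the other was 0.015, -0.008, 0.022, -0.018 and -0.003 from the lowest to the highest dose, against -0.009 in vehicle arrays, with SDs from 0.0717 to 0.0988. The group means of this difference lay within 1 SD between single arrays of each other. That SD is wider than the error of a mean of 6 arrays, so it cannot exclude a small difference between classes. With only 3 peroxisomal genes this is a narrow view of that compartment.

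**Figure D4:**
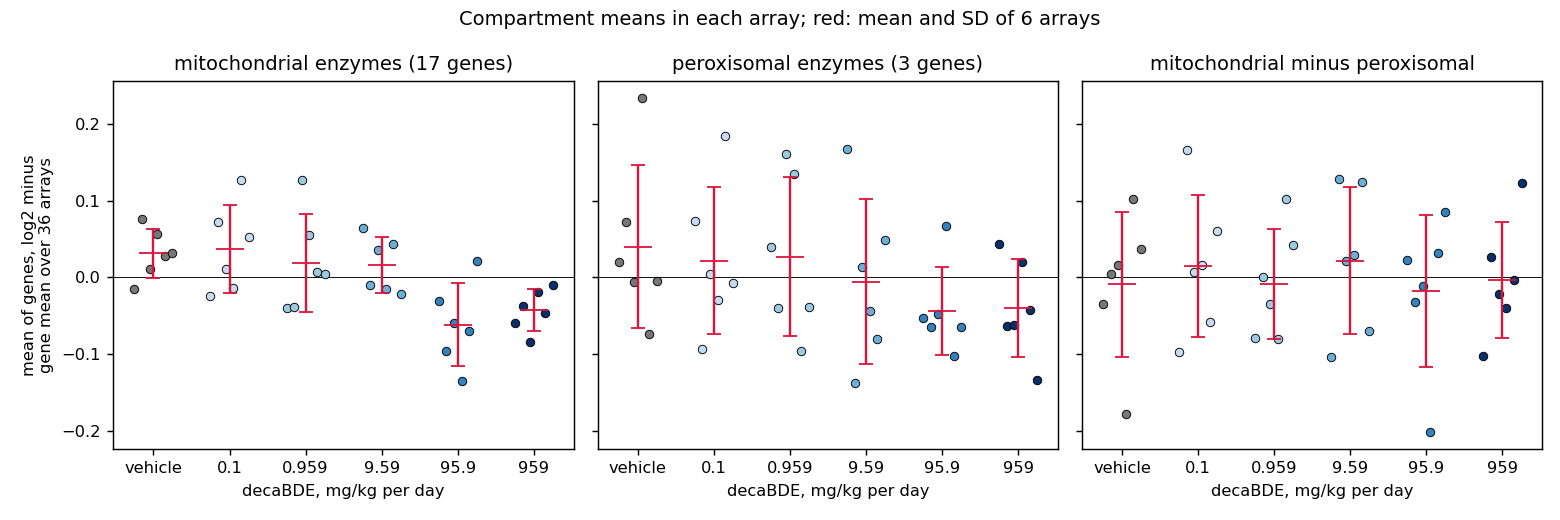
Average of 17 mitochondrial genes, of 3 peroxisomal genes, and their difference (y axes, log2 minus each gene's mean over 36 arrays) in each array by dose (x axis), with the mean and SD of 6 arrays in red. The mitochondrial averages at 95.9 and 959 mg/kg sit mostly below vehicle, and the difference between classes is centred near 0 in every group.

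Ketone body synthesis was covered by 1 member, Bdh1, the enzyme that interconverts acetoacetate and 3-hydroxybutyrate. It ran from 11.30 to 11.52 with a median of 11.41 at 959 mg/kg, against 11.40 to 11.60 with a median of 11.49 in vehicle arrays. The difference was -0.09 at both 95.9 mg/kg and 959 mg/kg (SE 0.0540, adjusted p 0.814 and 0.875). A second probe set gave -0.13 (adjusted p 0.853) at the top dose.

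Among the genes of uptake, binding and fasting, Fabp1 was the most tightly measured. It ran from 14.07 to 14.24 with a median of 14.19 at 959 mg/kg, against 14.18 to 14.29 with a median of 14.26 in vehicle arrays. The difference was -0.08 (SE 0.0356, adjusted p 0.770), and its slope along dose rank was -0.018 per step (adjusted p 0.272).

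Fabp1 is a known PPARA target in rat liver, and its promoter was the one member promoter to hold a relaxed form of the receptor's DR1 element. The element is a pair of AGGTCA repeats spaced by 1 base. The relaxed form, AGGNCANAGGNCA, lets any base stand at the fourth place of each repeat, and both strands were read from 250 bases before to 50 after each start in RefSeq GRCr8. It was found in 1 of 29 members with an entry, and in 0.415% of 33469 promoters. The strict form was found in 0 of 29 members and in 0.0538% of all promoters. The Fabp1 match, in capitals, runs from position -77 to -65 on the opposite strand. It contains the single repeat counted next.

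Fabp1, chr4:104749090-104749339 (+): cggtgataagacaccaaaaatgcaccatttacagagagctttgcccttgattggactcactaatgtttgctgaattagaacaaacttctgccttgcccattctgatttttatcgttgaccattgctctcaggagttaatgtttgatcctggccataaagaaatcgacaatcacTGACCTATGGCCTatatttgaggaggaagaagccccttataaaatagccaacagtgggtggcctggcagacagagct

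A single AGGTCA repeat unit lay in 6 of 29 member promoters (20.7%) and in 16.2% of all promoters. Besides Fabp1 these were Acadvl, Eci1 and Hsd17b4, and, after the start, Hadhb and Eci2. Acadvl is shown because it holds the unit at both -169 and -17, in capitals, and its relation with Pdk4 is among those given next. A match is only a stretch of letters, and no entry was at hand for Acaa2, Acadl, Cpt1b, Decr1, Ech1 and Vnn1.

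Acadvl, chr10:55236706-55236955 (-): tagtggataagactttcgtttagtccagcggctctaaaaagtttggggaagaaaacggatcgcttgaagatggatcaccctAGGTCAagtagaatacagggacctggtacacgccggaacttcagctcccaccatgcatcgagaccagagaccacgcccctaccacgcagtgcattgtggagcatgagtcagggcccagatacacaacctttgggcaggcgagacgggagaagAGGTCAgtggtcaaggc

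Fgf21 had the largest difference of all members and the largest error. It ran from 5.50 to 9.87 with a median of 6.83 at 959 mg/kg, against 6.52 to 10.66 with a median of 7.59 in vehicle arrays. The vehicle group held 2 arrays above 10, which no dosed array reached, and 4 between 6.52 and 7.94. The difference was -1.20 (SE 0.691, 95% interval -2.60 to 0.21, adjusted p 0.865). It was -0.74 without vehicle replicate 2 and -0.73 without vehicle replicate 5, the arrays above 10. The other doses had means of 7.55, 8.00, 7.79 and 7.47 from 0.1 to 95.9 mg/kg, against 8.31 in vehicle arrays, and each range overlapped the vehicle range.

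Pdk4 lay above vehicle at each dose, by values well inside its spread. It ran from 8.80 to 9.95 with a median of 9.31 at 959 mg/kg, against 8.70 to 10.03 with a median of 9.06 in vehicle arrays. The difference was 0.13 (SE 0.221, adjusted p 0.972) at 959 mg/kg and 0.32 (adjusted p 0.842) at 95.9 mg/kg. A second Pdk4 probe set gave 0.27 (adjusted p 0.657) at 95.9 mg/kg. Angptl4 was at -0.40 (SE 0.278, adjusted p 0.897) at the top dose, and Cd36, Ucp2 and Vnn1, a pantetheinase gene, lay between -0.05 and 0.02.

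Between arrays of one dose, Fgf21 and Pdk4 varied together. With each array centred on its group mean, Pearson's r over 36 arrays was 0.637 and Spearman's rho 0.597. A permutation test over arrays within groups, with 100000 resamples, gave p = 0.000270 for r. With Pdk4 as a covariate in limma beside the group means, Fgf21 passed after Benjamini-Hochberg adjustment over 31040 probe sets (adjusted p 0.00691), as did 0.818% of all probe sets. An r as high was found for 0.329% of all probe sets. Without the 2 arrays farthest from the Pdk4 median (959 mg/kg replicate 6 and vehicle replicate 2) r was 0.591. Without the 0.1 mg/kg array that differed most it was 0.638. Within single groups of 6 arrays r was 0.570, 0.718, 0.578, 0.836 and 0.290 from the lowest to the highest dose, against 0.871 in vehicle arrays.

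No other member passed in that fit. Acadvl, the very long chain dehydrogenase, came next, with r 0.590, rho 0.576 and an adjusted p of 0.207 in limma, and an r as high was found for 0.483% of all probe sets. Its r was 0.573 without the 2 farthest arrays and 0.540 without the array that differed most. Slc25a20, Hadhb and Hadha had r of 0.514, 0.458 and 0.416. Cpt1a and Angptl4, also linked to fasting, had r of 0.06 and 0.07 with Pdk4. Under an unadjusted p of 0.05 in limma, 5 of the 34 relations were positive and 0 negative, where 4.3% of all probe sets were positive and 4.56% negative. Adjusted over the 34 members alone, the permutation test gave 2 relations by r (Fgf21 and Acadvl) and 5 by rho, all of them positive, and this list was chosen with results of these data known.

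**Figure D5:**
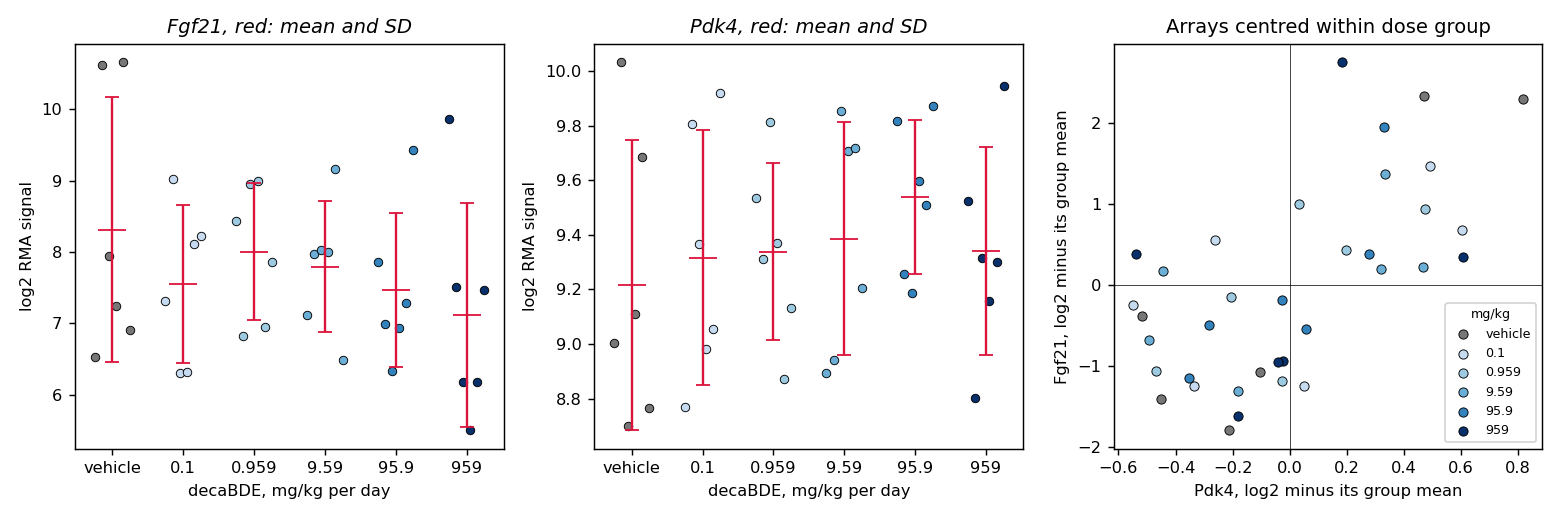
Log2 RMA signal of Fgf21 (left) and Pdk4 (middle) in each array by dose, with the mean and SD of 6 arrays in red, and the same arrays with both genes centred on their group means (right). Groups overlap across doses, and arrays high in Pdk4 tend to be high in Fgf21 (r 0.637 over 36 arrays).

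The regulators were dim on the array. Ppara ran from 5.39 to 6.32 with a median of 5.73 at 959 mg/kg, against 5.14 to 6.30 with a median of 5.88 in vehicle arrays. The difference was -0.07 (SE 0.211, adjusted p 0.988), and its sign turned when any of several single arrays was left out. Ppargc1a, whose product switches on oxidation and gluconeogenesis programmes, ran from 4.99 to 5.95 with a median of 5.21 at 959 mg/kg, against 4.70 to 5.75 with a median of 5.08 in vehicle arrays. The difference was 0.18 (SE 0.144, adjusted p 0.913), and its dimmest probe set gave -0.18.

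A wider list of 78 genes of the same pathways, of which 69 were measured, gave 3 calls, all along dose rank, where 0.393% of all probe sets passed. Its 5 groups were mitochondrial oxidation (12 of 12 measured), peroxisomal oxidation and biogenesis (26 of 32), ketone bodies (4 of 6), uptake and activation (15 of 15) and regulators (12 of 13). Up were 2 of the 12 mitochondrial genes, and down was 1 of the 26 peroxisomal genes. No gene of the wider list passed in the other comparisons.

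Acad9, an acyl-CoA dehydrogenase relative that helps assemble respiratory complex I, rose by 0.05 per step (adjusted p 0.0127). Its means were 9.58, 9.65, 9.71, 9.74 and 9.81 from the lowest to the highest dose, against 9.55 in vehicle arrays, and it held when each array was left out in turn. Etfrf1, a regulator of the electron transfer flavoprotein, rose by 0.04 per step (adjusted p 0.0224), with means of 9.68, 9.76, 9.82, 9.88 and 9.80, against 9.63 in vehicle arrays. Acot4, an acyl-CoA thioesterase that is peroxisomal in mice, fell by 0.10 per step (adjusted p 0.0344). Its means were 8.72, 8.54, 8.39, 8.22 and 8.15, against 8.49 in vehicle arrays, so the 0.1 mg/kg mean lay above vehicle. The Etfrf1 call ended in 7 of 36 fits that each left out 1 array (vehicle replicate 3, 4 or 6, or 959 mg/kg replicate 2, 3, 4 or 5), with an adjusted p of up to 0.0700. The Acot4 call ended in 13 of 36, with an adjusted p of up to 0.105. Those arrays were replicates 2, 3 and 5 at 0.1 mg/kg, 1, 2 and 4 at 95.9 mg/kg, 1, 4, 5 and 6 at 959 mg/kg, and 1, 2 and 4 of vehicle. Values minus the array median also ended it for Acot4.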

How the data were processed

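Total RNA of 36 rat liver samples was hybridised to Affymetrix 3′ expression arrays. Per the submitters' processing notes the authors used RMA in the affy package; its version is not given in the sources used here. The deposited values are log2 signals with 1 value per probe set. RMA subtracts background and equalises array distributions, which would remove a shift shared by most genes. No further normalization was applied. All 36 arrays were grouped by their titles.

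The table held 31099 probe sets, of which 57 were controls of the array and not used. A gene was read from its brightest probe set carrying 1 symbol, and promoters came from RefSeq GRCr8. Arrays were fitted with limma 3.58.1 in R 4.3.3 (a mean for each group; residual degrees of freedom 30, prior 5.12; moderated tests of both directions), with Benjamini-Hochberg adjustment over 31042 probe sets within each of 10 comparisons. The series' design text names maanova, which was not at hand. The line contrast used dose ranks 0 to 5. Relations with Pdk4 used permutation within groups in Python 3.11.15 with scipy 1.17.1, and a limma fit with Pdk4 as a covariate over 31040 probe sets, those of Pdk4 left out. The code was tested on simulated data. Members and gene lists were chosen with earlier results of these data known.

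Full values by group were given for members past the threshold, for the member of each role group with the smallest p for any difference and with the largest difference at 959 mg/kg, and for Cpt1a, Acadm, Ehhadh, Ppara, Pdk4 and Fgf21. Other members were added for their role. No precision beyond the number of arrays is known. Alternatives were another quantile normalization, values minus array medians, only bright or only 1 probe set per gene, no moderation, an intensity trend with robust fitting, weights per array, a block for replicate number, only the compared groups, other dose scales, other probe sets and each array left out. The comparison with bright probe sets, the covariate fit and the checks of Acad9, Etfrf1 and Acot4 were added after seeing the data.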

Additional observations from a re-analysis of the deposited data

Results flagged for a closer look

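Of 210 sets of 6 arrays (35 genes in 6 groups), 15 (7.14%) held an array whose gap to its nearest neighbour, divided by the range of the set, was above Dixon's critical value of 0.625. Chance alone gives about 1 in 20 such sets. Replicate 3 of the 0.959 mg/kg group was high for Acadl (12.67, others 12.50 to 12.55) and low for Ppargc1a (4.54). Replicate 6 of that group was low for Fabp1 (14.17, others 14.24 to 14.25) and for Cd36 (6.11, others 6.48 to 6.65), and replicate 1 was low for Acsl1 (12.95, others 13.04 to 13.08).

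The 95.9 mg/kg group had 5 such arrays, each a different replicate. Acadm was low in replicate 3 (12.47), Etfb in replicate 4 (11.69) and Ucp2 in replicate 5 (6.63, others 7.03 to 7.09), while Bdh1 was high in replicate 1 (11.51) and Slc25a20 in replicate 6 (9.69). At 9.59 mg/kg Acads was high in replicate 1 (10.57) and Ehhadh low in replicate 2 (10.97, others 11.29 to 11.46). Hsd17b4 was low in replicate 2 of the 959 mg/kg group (11.77, others 11.88 to 11.90), Ppargc1a in replicate 1 of the 0.1 mg/kg group (5.07), and Etfdh was high in vehicle replicate 2 (11.10, others 10.85 to 10.92).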

How the results depend on the processing

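The count of members past the threshold stayed at 0 in the other 9 comparisons under every alternative run, with each array left out in turn included. Along dose rank it was 0 as reported. It was 2 (Crat and Ech1) after another quantile normalization (0.374% of all probe sets tested in that fit passed), among probe sets no dimmer than the median (0.954%), with only the brightest probe set per gene (0.767%), and with an intensity trend and robust fitting (0.432%). It was 1 (Fabp1) without variance moderation (0.419%). Leaving out single arrays gave 0 to 2. Decr1 passed without vehicle replicate 1. Ech1 passed without replicate 1 or 4 at 0.1, 2 at 0.959, 1 or 3 at 9.59 (then with Crat), or 1 or 6 at 95.9 mg/kg. In these fits between 0.341% and 0.416% of all probe sets passed. The smallest adjusted p ran from 0.0397 to 0.157 over these fits. It was 0.0879 on values minus array medians and 0.0601 with array weights, both with a count of 0. A line in mg/kg and one in log10 dose without vehicle also gave 0.

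Replicate numbers did not pair the arrays: deviations of same-numbered arrays correlated at -0.0221 on average, and 4 of 36 arrays correlated best with their own number. With the replicate number as a block the count along dose rank was 0 (smallest adjusted p 0.0779), with 104 probe sets called in place of 122.

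Ppara and Ppargc1a changed sign without ever passing the threshold. Ppara at 959 mg/kg ran from -0.20 to 0.0304 with single arrays left out, and its slope from -0.022 to 0.011. That slope was 6.8e-05 per mg/kg and 0.029 per log10 dose. The Ppargc1a slope ran from -0.00903 to 0.0264 with single arrays left out, and was -0.00368 and -0.0215 on its dimmer probe sets, the last at -0.18 for 959 mg/kg. All 235 recomputed mitochondrial minus peroxisomal values ran from -0.04 to 0.06, within 1 SD between arrays (0.0887) of the reported ones. That SD is wide beside these values. Many of the settings cannot change the value, such as leaving out an array of another group or subtracting array medians. The count therefore says little on how stable the difference is. Counting Ech1, Eci2 and Crat as peroxisomal did change the value, and moved that of 959 mg/kg toward the upper end of the range. Adjusted over the members alone, 3 Pdk4 relations passed without the 2 farthest arrays or the 0.1 mg/kg array, in place of 2. In limma, adjusted over all probe sets, 1 relation with Pdk4 passed, a fit chosen after seeing the data. The Acad9 and Etfrf1 slopes were not past the threshold on either other dose scale, nor was Acot4 per mg/kg, without moderation or with array weights. Array number limits the precision, and no depth is defined.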
